A study of Homo sapiens with 20 samples.

Results

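The genes described are 9 mRNA decay and quiescence factors, chosen by their names in the deposited gene table from 60719 genes in all: ZFP36, ZFP36L1, ZFP36L2, ZC3H12A, RC3H1, BTG1, BTG2, TOB1 and TOB2. Each name matched 1 gene, and all 9 passed the low-count filter that left 16327 genes for testing. ZFP36 and its paralogs ZFP36L1 and ZFP36L2 are zinc finger proteins that bind AU-rich elements in the 3′ UTRs of cytokine and growth factor mRNAs and bring in the CCR4-NOT deadenylase, which shortens the poly(A) tail. ZC3H12A, also called Regnase-1, is an RNase that cuts stem-loops in 3′ UTRs, and RC3H1, also called Roquin-1, binds related stem-loops and recruits CCR4-NOT. BTG1, BTG2, TOB1 and TOB2 belong to a family of antiproliferative proteins that bind the catalytic CCR4-NOT subunits CNOT7 and CNOT8, and several of them are known for keeping resting T cells quiescent.

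RNA sequencing covered 20 libraries, 10 of WT Jurkat cells, which are human leukemic T lymphoblasts, and 10 of JINB8, a CD47-deficient mutant derived from them (CD47- cells). Untreated cells of each line were sampled at 1 h. At 1, 3 and 6 h each line gave 1 library per treatment, which was plate-bound antibody to CD3 and CD28 (CD3+CD28), both antibodies together with the matrix protein thrombospondin-1, a ligand of CD47 (CD3+CD28+TSP1), or TSP1 alone. TSP1 was used at 1 µg/ml and the CD28 antibody was coated at 4 µg/ml, whereas no concentration is given here for the CD3 antibody because its unit differs between sources. All cells, untreated ones included, were kept in serum-free HITES medium with hydrocortisone at 200 nM and insulin at 5 µg/ml. No condition was sequenced more than once, so each test rests on the spread between libraries that differ in treatment, time or both, and a p-value measures that spread. The CD47- cells are 1 mutant line, and loss of CD47 cannot be told apart from other differences between the lines. Untreated cells were sampled at 1 h alone, so time in culture and time under treatment cannot be told apart.

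Library totals ran from 16107921 to 31737616 counts. CD47 mRNA was at 316 ± 42.0 CPM (reads scaled to library size with TMM factors, SD, n = 10) in WT and 147 ± 12.6 CPM (n = 10) in CD47- cells, without overlap. All 10 T cell markers reached 1 CPM in each line, with TRAC 3.08 lower on the log2 scale in CD47- cells (log2 fold change -3.08, adjusted p = 3.13e-12) and CD28 2.35 higher (adjusted p = 2.71e-10), while the 4 B cell markers summed to 35.5 to 55.8 CPM in WT and 5.70 to 13.5 CPM in CD47- cells with MS4A1 below 1 CPM throughout, and their part in the line differences was not tested. Of these B cell markers, CD79A was lower in CD47- cells (log2 -2.64, edgeR adjusted p = 4.99e-13) and CD79B was not called (0.38). Among markers of other cell types, COL1A1 (1.14), KRT8 (1.05) and HBA1 (1.38) were called higher in CD47- cells, and KRT18, HBB and CD14 were not called. The part of these was not tested either. The CD47- CD3+CD28+TSP1 library at 3 h stood apart. It had the lowest total, its highest correlation with any other library was 0.982 against at least 0.993 elsewhere, and its ribosomal protein mRNAs summed to 42200 CPM against 62100 to 92940 CPM in the other 19. ZFP36L1, ZFP36L2, RC3H1 and TOB2 had their highest CD47- level in it, and several results below are given with and without it. In cell populations like these, fewer cells with a transcript and less transcript per cell cannot be told apart.

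The 3′ UTRs of the ZFP36 paralogs carry the element that these proteins bind, and the windows around it are shown here beside those of BTG2 and BTG1, whose mRNAs fell with time in both lines. The AU-rich nonamer TTATTTATT, searched on the transcript strand, is present once in each of ZFP36, ZFP36L1 and ZFP36L2 and in none of the other 6 genes, and 8.4% of 19550 canonical 3′ UTRs of GENCODE version 44 hold it. The shorter heptamer TATTTAT, which lies inside the nonamer, has 3 sites in each of ZFP36, ZFP36L1 and ZFP36L2, 2 in RC3H1, 1 in each of BTG1, BTG2 and TOB2 and 0 in ZC3H12A and TOB1, against 31.5% of all 3′ UTRs with a site. The 3′ UTR of ZFP36 is 708 bases long, and 20.7% of 2217 UTRs of similar length hold the heptamer. For RC3H1, with a 3′ UTR of 7637 bases, that share is 79.4%. It is 39.9% for ZFP36L1, 40.1% for ZFP36L2, 45.1% for BTG2, 52.8% for TOB2 and 61.4% for BTG1. UTRs of similar length to BTG1 have a median of 1 heptamer site. TOB1, whose mRNA also fell with time in both lines, has 0 sites. BTG1 has 4 copies and RC3H1 2 copies of the Pumilio octamer TGTANATA, which 25.4% of all 3′ UTRs hold, as do 50.0% of those of similar length to BTG1 and 74.1% of those of similar length to RC3H1. Capitals mark the nonamer or, in BTG2 and BTG1, the heptamer, with GRCh38 coordinates.
ZFP36 3′ UTR, chr19:39409198-39409223, plus strand: tgacgactTTATTTATTctaatatga
ZFP36L1 3′ UTR, chr14:68788078-68788103, minus strand: ctgttggaTTATTTATTttagaaatt
ZFP36L2 3′ UTR, chr2:43223449-43223474, minus strand: tatttaacTTATTTATTatcttgtga
BTG2 3′ UTR, chr1:203307531-203307556, plus strand: tgaagagcTATTTATatatattattt
BTG1 3′ UTR, chr12:92140770-92140795, minus strand: agatttctTATTTATctgaaggtata

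Promoters are shown for ZFP36L1, the member with the widest difference with CD3+CD28 at 3 h (not called by edgeR), and for BTG1 and BTG2, which were lower at 3 and 6 h than at 1 h in both lines. They are the 200 bases before the RefSeq start site (GRCh38.p14). On both strands of the 300-base RefSeq promoter windows, TGACGTCA (a CRE) was found in 1.85% of 35116 promoters, GCGNGGGCG (an EGR site) in 9.43% and the TATA box, the 6 letters in capitals in BTG1, in 11.5%. ZFP36L1 has 1 CRE at position -52 from this RefSeq start site, which itself lies 349 bases before the GENCODE start of ZFP36L1-202, the transcript with most of its counts. The 300-base window of this promoter also holds an EGR site at position 6, after the start, and a second RefSeq start site of ZFP36L1, 3176 bases before that of ZFP36L1-202, has none of the 3 motifs in its window. BTG2 has 2 EGR sites, the first letters of which are at positions -172 and -151, and BTG1 has a TATA box at position -33. Among members not shown, ZC3H12A has an EGR site at -168 and a TATA box at -27. RC3H1, whose RefSeq start lies inside the gene, has a TATA box at -162. TGANTCA (an AP-1 site, in 7.71% of promoters) and CArG sites (1.29%) were searched for and found in no window of a member. GC and CCAAT boxes were searched for as well and are not described here. Capitals mark the CRE, the TATA box and the EGR sites.
ZFP36L1 promoter, chr14:68793417-68793616, minus strand: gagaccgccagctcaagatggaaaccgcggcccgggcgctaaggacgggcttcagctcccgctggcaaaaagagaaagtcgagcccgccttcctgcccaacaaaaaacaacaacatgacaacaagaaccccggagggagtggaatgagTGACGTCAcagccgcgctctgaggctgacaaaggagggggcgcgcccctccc
BTG1 promoter, chr12:92145847-92146046, minus strand: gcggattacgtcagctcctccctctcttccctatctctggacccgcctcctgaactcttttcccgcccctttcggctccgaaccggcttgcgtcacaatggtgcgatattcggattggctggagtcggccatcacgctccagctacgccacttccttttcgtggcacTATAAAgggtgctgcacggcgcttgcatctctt
BTG2 promoter, chr1:203305319-203305518, plus strand: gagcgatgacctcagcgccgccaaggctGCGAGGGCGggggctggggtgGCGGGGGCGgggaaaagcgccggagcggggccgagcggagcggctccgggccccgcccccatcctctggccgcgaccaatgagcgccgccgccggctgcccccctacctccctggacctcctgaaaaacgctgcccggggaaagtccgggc

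Summed over all transcripts of a gene, each divided by its length, BTG1 had the highest level of the 9 genes in both lines, at 25.4 ± 13.1 CPM per kb in WT and 30.6 ± 12.7 CPM per kb in CD47- cells (SD over 10 libraries of each line). In WT cells TOB1 followed at 9.20 ± 3.99, RC3H1 at 7.90 ± 1.13, TOB2 at 7.44 ± 2.33, BTG2 at 7.11 ± 2.17, ZFP36L2 at 6.97 ± 2.52, ZFP36L1 at 6.84 ± 4.46, ZC3H12A at 6.78 ± 2.16 and ZFP36 at 5.90 ± 2.60 CPM per kb. Each of the 8 genes below BTG1 differed from its neighbour in this order by less than the larger of their SDs. In CD47- cells BTG1 was followed by RC3H1 at 9.18 ± 2.20, ZC3H12A at 8.55 ± 0.972, ZFP36L2 at 7.46 ± 1.36, TOB1 at 6.84 ± 2.05, ZFP36 at 6.54 ± 1.37, TOB2 at 6.38 ± 1.08, ZFP36L1 at 5.42 ± 1.94 and BTG2 at 3.09 ± 1.25 CPM per kb. BTG2 was thus last in that order, and neighbours differed by less than the larger SD apart from BTG1 and RC3H1, and ZFP36L1 and BTG2. The place of BTG1 rests on BTG1-203, a transcript of 1375 bases with no defined coding sequence. Over transcripts annotated as protein coding alone, BTG1 was at 3.52 ± 1.39 CPM per kb in WT, the lowest mean of the 9, and at 3.91 ± 0.696 in CD47- cells, where BTG2 alone had a lower one, and the highest means were those of TOB1 in WT (9.15 ± 4.02) and RC3H1 in CD47- cells (8.62 ± 1.69). All further levels are in CPM of a gene, not divided by length.

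**Figure D1:**
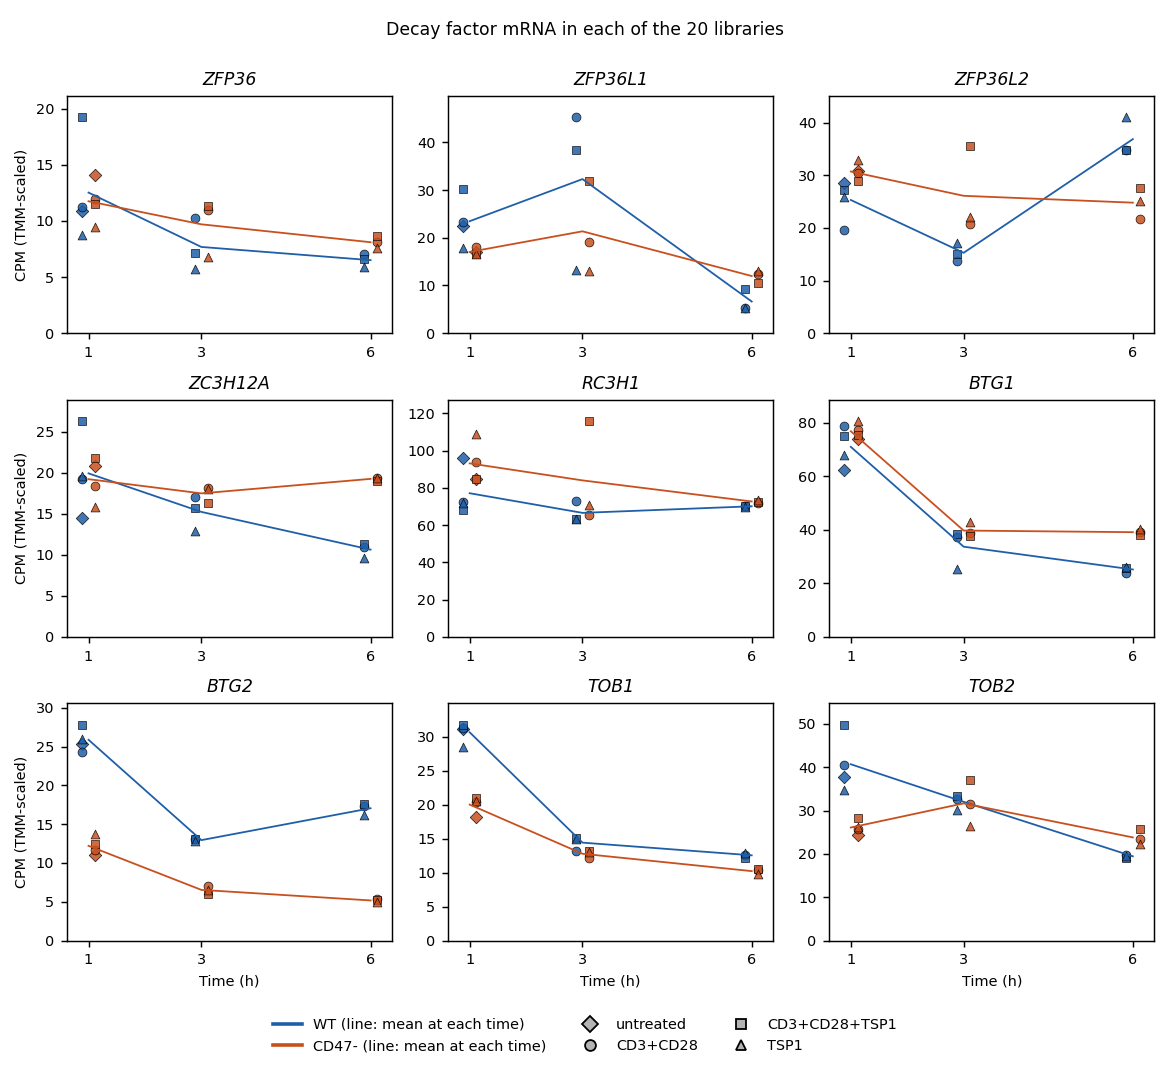
TMM-scaled CPM (y axis, from 0) of the 9 genes at 1, 3 and 6 h (x axis) in each of the 20 libraries, with WT in blue, CD47- in orange, marker shapes for treatments and lines through the mean of a cell line at each time. BTG2 lay lower in CD47- than in WT cells at each time, ZFP36L1 was highest at 3 h in the WT libraries with CD3+CD28, and ZFP36L2 was highest at 6 h in WT cells.

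BTG2, an antiproliferative partner of the deadenylases and a p53-inducible gene, was lower in CD47- cells at all times. In WT cells at 1 h it stood at 25.4 CPM untreated, 24.3 with CD3+CD28, 27.8 with CD3+CD28+TSP1 and 26.0 with TSP1, and in CD47- cells at 11.1, 11.6, 12.4 and 13.7 CPM in the same order. At 3 h the CD3+CD28, CD3+CD28+TSP1 and TSP1 libraries held 13.0, 13.0 and 12.8 CPM in WT against 7.05, 6.01 and 6.55 CPM in CD47- cells. At 6 h they held 17.4, 17.6 and 16.2 CPM against 5.36, 5.24 and 4.92 CPM. The lines did not overlap at any time, and CD47- cells were lower in 10 of 10 pairs matched by treatment and time. These values rest on 288 to 624 counts per library in WT and 112 to 336 in CD47- cells.

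BTG2 (chromosome 1, 203305491 to 203309602, plus strand, GRCh38) was also the only member called over all libraries, with a log2 fold change of CD47- relative to WT of -1.20 (SE 0.21, edgeR quasi-likelihood test, adjusted p = 9.25e-05). A call means an adjusted p under 0.05, and 41.0% of all tested genes were called in this comparison, so 1 of 9 members is below the background share. Blocking on the 10 matched pairs gave 3 members, against 55.5% of all genes, with BTG1 (0.31, adjusted p = 0.00814) and TOB1 (-0.40, adjusted p = 0.000358) added to BTG2, and a term for time gave 5, against 59.4% of all genes, with ZC3H12A (0.29, adjusted p = 0.0409) and RC3H1 (0.23, adjusted p = 0.0337) added to those. The median log2 fold change was 0.10 over the members and -0.01 over all genes.

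At separate times, the members called between the lines changed. At 1 h 3 of 9 were lower in CD47- cells and 0 higher, at 3 h 1 was lower and 1 higher, and at 6 h 3 were lower and 2 higher, where 48.6%, 46.5% and 47.0% of all genes were called in either direction. BTG2 was lower by edgeR at 1 h (log2 fold change -1.09, SE 0.08, adjusted p = 2.99e-10), at 3 h (-0.98, SE 0.10, adjusted p = 7.06e-08) and at 6 h (-1.72, SE 0.10, adjusted p = 1.48e-11). TOB1 was lower at 1 h (-0.62, SE 0.07, adjusted p = 2.64e-07) and 6 h (-0.29, SE 0.09, adjusted p = 0.00767), and TOB2 at 1 h (-0.64, SE 0.10, adjusted p = 3.14e-05). The edgeR call of TOB1 at 6 h was lost without the low-count filter (adjusted p = 0.0788) or without the CD47- TSP1 library of 6 h. ZFP36L2 was higher in CD47- cells at 3 h (0.77, SE 0.17, adjusted p = 0.000985, and 0.51, adjusted p = 0.00394, without the library that stood apart) and lower at 6 h (-0.57, SE 0.16, adjusted p = 0.00642). ZC3H12A (0.85, SE 0.16, adjusted p = 0.000184) and BTG1 (0.64, SE 0.12, adjusted p = 0.000145) were higher at 6 h. Without the CD47- CD3+CD28+TSP1 library at 3 h the counts were 5, 3 and 7: ZFP36L2 (0.30, adjusted p = 0.0156) and RC3H1 (0.29, adjusted p = 0.00969) joined at 1 h, ZFP36L1 (-0.98, adjusted p = 0.0241) at 3 h (it was also called at 3 h without the WT TSP1 library of 3 h), and ZFP36L1 (0.84, adjusted p = 0.0419) and TOB2 (0.31, adjusted p = 0.0214) at 6 h. The shares of all genes above are from the fit with all libraries, and none is given here without the library that stood apart. Blocking on matched pairs, added after the values were seen, also called ZFP36L1 (0.87, adjusted p = 0.0154) and TOB2 (0.29, adjusted p = 0.0283) at 6 h, 7 members against 44.4% of all genes.

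**Figure D2:**
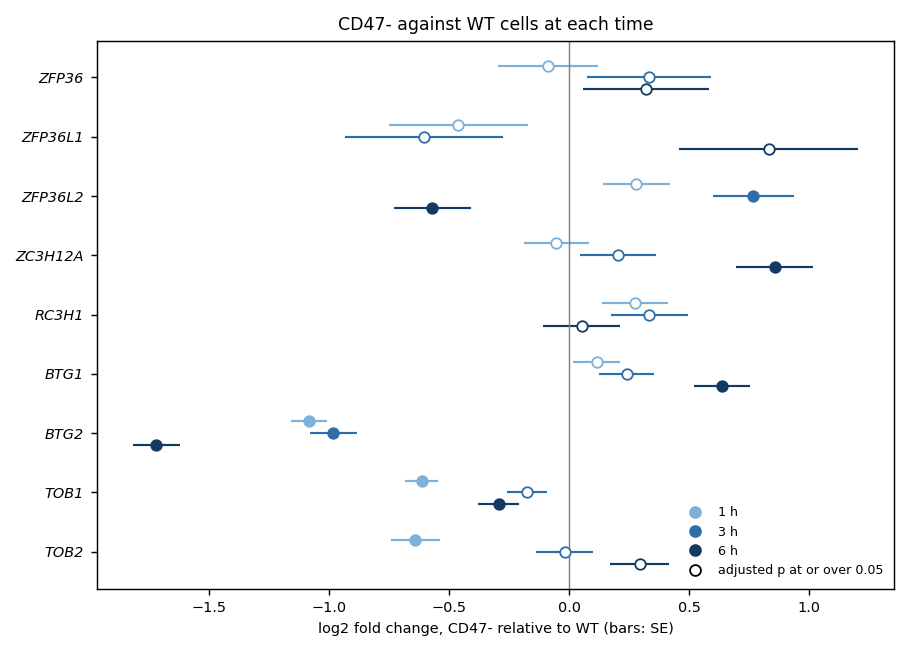
Log2 fold change of CD47- relative to WT cells (x axis, bars are SE) for each gene at 1, 3 and 6 h, with filled points for an edgeR adjusted p under 0.05 and open points otherwise. BTG2 is left of 0 at all 3 times, from -0.98 to -1.72, and ZFP36L2 is at 0.77 at 3 h and -0.57 at 6 h.

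With time, BTG1, BTG2 and TOB1 fell in both lines, and ZFP36, ZC3H12A and TOB2 were called lower in WT cells at both later times. At 3 h the calls of ZFP36 and TOB2 were lost without the WT CD3+CD28+TSP1 library of 1 h or of 3 h. In WT cells 7 members were lower and 0 higher at 3 h than at 1 h, where 17.7% of all genes were lower, 17.1% higher and 34.7% called in all. At 6 h 7 were lower and 1 higher, against 25.0% lower, 25.9% higher and 51.0% called. In CD47- cells 3 members were lower and 0 higher at 3 h (20.4% of all genes lower, 18.4% higher, 38.8% called), and 4 were lower and 0 higher at 6 h (27.2% lower, 26.5% higher, 53.7% called). Without the library that stood apart, those 2 counts of CD47- cells were 5 and 5, with ZFP36L2 (-0.49, adjusted p = 0.0025) and RC3H1 (-0.52, adjusted p = 0.000114) added at 3 h and ZFP36L2 (-0.31, adjusted p = 0.00776) at 6 h. The shares of all genes in this paragraph are from the fit with all libraries, and none is given here without that library. The median over the members at 6 h was -1.03 on the log2 scale in WT and -0.43 in CD47- cells, and over all genes it was 0.00 in each. The 3 h and 6 h comparisons of a line share its 1 h libraries.

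BTG1, a quiescence factor of T cells, fell in both lines by 3 h. At 1 h the WT libraries held 62.2 CPM untreated, 78.6 with CD3+CD28, 75.0 with CD3+CD28+TSP1 and 68.1 with TSP1, and the CD47- libraries 74.0, 77.3, 75.3 and 80.6 CPM. At 3 h the CD3+CD28, CD3+CD28+TSP1 and TSP1 libraries held 37.4, 38.3 and 25.3 CPM in WT and 38.8, 37.5 and 42.8 CPM in CD47- cells, and at 6 h 23.7, 25.8 and 26.0 CPM against 39.0, 38.1 and 40.2 CPM. Within each line every library at 1 h lay above every later one. The log2 fold change of BTG1 from 1 to 3 h was -1.14 in WT (SE 0.10, edgeR, adjusted p = 2.3e-06) against -0.97 in CD47- cells (SE 0.10, adjusted p = 1.05e-05). At 6 h the changes from 1 h were -1.55 (SE 0.10, adjusted p = 4.24e-08) and -0.99 (SE 0.10, adjusted p = 1.7e-06). In WT both CD3+CD28 libraries were lower at 6 h than at 3 h and the TSP1 library was not, and in CD47- cells the 6 h values lay within the 3 h range.

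TOB1, which links the deadenylases to poly(A)-binding protein, followed a similar course from a lower level. It ranged from 28.5 to 31.8 CPM at 1 h, 13.1 to 15.2 at 3 h and 12.2 to 12.9 at 6 h in WT cells, and from 18.2 to 21.0, 12.1 to 13.2 and 9.84 to 10.5 CPM in CD47- cells. The lines were apart at 1 h and 6 h and overlapped at 3 h. The log2 fold change of TOB1 from 1 to 6 h was -1.28 in WT (SE 0.09, edgeR, adjusted p = 4.36e-08) against -1.01 in CD47- cells (SE 0.09, adjusted p = 4.19e-07). In 10 of 10 matched pairs the CD47- library was lower, with log2 ratios from -0.77 to -0.12. For BTG2 the change from 1 to 3 h was -1.01 in WT (SE 0.09, adjusted p = 3e-06) against -0.94 in CD47- cells (SE 0.10, adjusted p = 1.47e-05). From 1 to 6 h it was -0.61 in WT (SE 0.09, adjusted p = 6.22e-05), with each 6 h library above each 3 h library, and -1.28 in CD47- cells (SE 0.10, adjusted p = 2.29e-07), with each 6 h library under each 3 h library.

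TOB2, the paralog of TOB1, declined in WT cells and was not called by edgeR in CD47- cells. In WT it stood at 37.7 CPM untreated, 40.5 with CD3+CD28, 49.8 with CD3+CD28+TSP1 and 34.8 with TSP1 at 1 h, at 32.8, 33.3 and 30.0 CPM with CD3+CD28, CD3+CD28+TSP1 and TSP1 at 3 h, and at 19.8, 19.1 and 19.5 CPM at 6 h. In CD47- cells it ranged from 24.3 to 28.2 CPM at 1 h, 26.3 to 37.1 at 3 h and 22.2 to 25.7 at 6 h. The WT libraries at the 3 times did not overlap, and those of CD47- cells did between 1 h and each later time. The log2 change from 1 to 6 h was -1.09 in WT (SE 0.10, edgeR, adjusted p = 7.88e-07) against -0.17 in CD47- cells (SE 0.10, interval of 2 SE from -0.37 to 0.03, adjusted p = 0.177). From 1 to 3 h the change in CD47- cells was 0.24 (SE 0.10, adjusted p = 0.0732), and it was called with at least 1 CPM in every library (0.26, adjusted p = 0.0466), with upper-quartile factors (0.29, adjusted p = 0.0416) and without any of 3 libraries.

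In WT cells the ZFP36 paralogs did not share a time course. In CD47- cells their log2 changes from 1 to 6 h were -0.43 for ZFP36, -0.50 for ZFP36L1 and -0.32 for ZFP36L2. None of these was called by edgeR with all libraries. ZFP36L1, which with ZFP36L2 acts during thymic development, was at 22.5 CPM untreated, 23.4 with CD3+CD28, 30.3 with CD3+CD28+TSP1 and 17.8 with TSP1 in WT cells at 1 h. At 3 h the CD3+CD28, CD3+CD28+TSP1 and TSP1 libraries of WT cells held 45.2, 38.3 and 13.4 CPM, and at 6 h 5.22, 9.35 and 5.35 CPM. In CD47- cells it was at 17.0, 18.0, 16.6 and 16.6 CPM at 1 h, 19.0, 32.0 and 13.1 CPM at 3 h, and 12.5, 10.5 and 13.0 CPM at 6 h. Each line was lowest at 6 h, without overlap with earlier times, and highest at 3 h in a library with CD3+CD28. In CD47- cells that was the library that stood apart, and without it the log2 fold change of ZFP36L1 from 1 to 3 h there was -0.14 in place of 0.27 (edgeR adjusted p = 0.701 and 0.467). From 1 to 6 h the log2 fold change of ZFP36L1 in WT was -1.84 (SE 0.30, edgeR, adjusted p = 0.00017), while the change in CD47- cells was -0.50 (SE 0.29, adjusted p = 0.161).

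ZFP36L2 moved the other way in WT cells. It stood there at 28.5 CPM untreated, 19.6 with CD3+CD28, 27.2 with CD3+CD28+TSP1 and 25.9 with TSP1 at 1 h, fell to 13.7, 14.95 and 17.2 CPM with CD3+CD28, CD3+CD28+TSP1 and TSP1 at 3 h, and reached 34.8, 34.8 and 41.0 CPM at 6 h. The 6 h libraries lay above all others of the line. In CD47- cells ZFP36L2 was between 28.9 and 32.8 CPM at 1 h, at 20.8, 35.5 and 22.0 CPM at 3 h, where 35.5 CPM belongs to the library that stood apart, and between 21.7 and 27.6 CPM at 6 h. By edgeR the change from 1 h in WT was -0.66 at 3 h (SE 0.14, adjusted p = 0.00272) and 0.61 at 6 h (SE 0.14, adjusted p = 0.00199), and at 6 h in CD47- cells it was -0.32 (SE 0.14, adjusted p = 0.0622). ZFP36, or tristetraprolin, an immediate early gene and the best known AU-rich element binder, was at 8.73 to 19.2 CPM in WT and 9.44 to 14.1 CPM in CD47- cells at 1 h. At 6 h it was at 5.91 to 7.02 and 7.60 to 8.62 CPM, and its change from 1 h was -0.98 in WT (SE 0.20, adjusted p = 0.00113) against -0.43 in CD47- cells (SE 0.20, adjusted p = 0.0873). Each 1 h library of ZFP36 lay above each 6 h library in both lines, and the difference between the lines in this change was not called (0.55, SE 0.29, adjusted p = 0.219). In CD47- cells the change of ZFP36 was called by limma (-0.54, adjusted p = 0.0333), in a fit of the line alone (-0.41, adjusted p = 0.0354) and with pooled TSP1 states (-0.58, adjusted p = 0.0198).

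Among the stem-loop factors, ZC3H12A fell in WT cells and was not called in CD47- cells. It was at 14.5 CPM untreated, 19.3 with CD3+CD28, 26.3 with CD3+CD28+TSP1 and 19.6 with TSP1 at 1 h in WT, at 17.0, 15.7 and 13.0 CPM with CD3+CD28, CD3+CD28+TSP1 and TSP1 at 3 h, and at 11.0, 11.3 and 9.62 CPM at 6 h. In CD47- cells it ranged from 15.9 to 21.8 CPM at 1 h, 16.3 to 18.2 at 3 h and 19.0 to 19.4 at 6 h, and the 6 h libraries lay within the range at 1 h. The edgeR log2 fold change from 1 to 6 h was -1.03 in WT (SE 0.12, adjusted p = 1.06e-05) against 0.05 in CD47- cells (SE 0.12, adjusted p = 0.765). RC3H1 ranged in WT from 63.2 to 96.2 CPM with a median of 70.4 over 10 libraries, where the highest was the untreated library. In CD47- cells it ranged from 65.5 to 115.8 CPM with a median of 79.0, and the highest was the library that stood apart. RC3H1 was lower at 6 h than at 1 h in CD47- cells (-0.40, SE 0.15, adjusted p = 0.0353), a call that was lost without any of 9 libraries, and was not called in WT (-0.01, SE 0.15, adjusted p = 0.955). MALAT1, a nuclear noncoding RNA, was at 4208 to 5748 CPM in CD47- cells at 1 h and 2659 to 2837 CPM at 6 h. In WT cells it was at 4643 to 7592 and 3023 to 3631 CPM, and its link with RC3H1 was not tested.

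**Figure D3:**
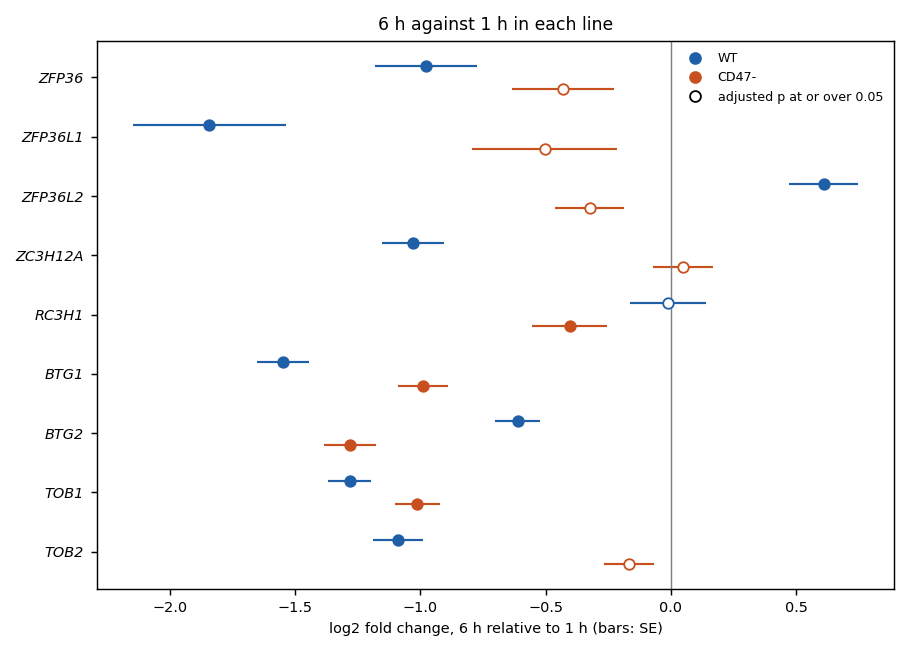
Log2 fold change from 1 to 6 h (x axis, bars are SE) for each gene in WT (blue) and CD47- cells (orange), with filled points for an edgeR adjusted p under 0.05 and open points otherwise. ZFP36L2 is at 0.61 in WT, the only filled point above 0, and BTG2 is at -0.61 in WT and -1.28 in CD47- cells.

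The difference between the lines in the change from 1 to 6 h was tested as an interaction and called for 6 of 9 members, 4 higher and 2 lower in CD47- cells, where 16.7% of all genes were called, 6.54% higher and 10.1% lower. By edgeR, ZC3H12A (1.08, SE 0.17, adjusted p = 0.000975), TOB2 (0.92, SE 0.14, adjusted p = 0.000669), BTG1 (0.56, SE 0.14, adjusted p = 0.0168) and ZFP36L1 (1.34, SE 0.42, adjusted p = 0.0438) had the higher change in CD47- cells. BTG2 (-0.67, SE 0.14, adjusted p = 0.00508) and ZFP36L2 (-0.93, SE 0.19, adjusted p = 0.00539) had the lower change there. The call of ZFP36L1 was lost with limma (adjusted p = 0.0778) and on leaving out any of 11 libraries, and that of BTG1 without the WT CD3+CD28+TSP1 library at 6 h (adjusted p = 0.0649). Without the library that stood apart, RC3H1 (-0.38, adjusted p = 0.0066) was a seventh. For the change from 1 to 3 h, TOB2 alone was called (0.61, SE 0.14, adjusted p = 0.028), with 4.26% of all genes called, a call lost without any of 6 libraries and with the block on pairs (adjusted p = 0.0632, 2.44% of all genes called), and RC3H1 (-0.43, adjusted p = 0.0217) joined it without that library.

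CD3+CD28 moved few members beyond the spread. At 1 h, edgeR called 0 members in WT and 0 in CD47- cells (0.0857% and 0.00% of all genes called), with 4 and 0 members at an unadjusted p under 0.05 and 0 by DESeq2 and by limma in each line. Of 16327 genes, 1003 in WT and 193 in CD47- cells were under that unadjusted cut. In WT cells at 1 h, both CD3+CD28 libraries lay above both libraries without it for 5 members (ZFP36, ZFP36L1, BTG1, TOB1 and TOB2), against 17.3% of all genes, and in CD47- cells for 0, against 12.4%. The log2 fold changes of these 5 in WT ran from 0.08 for TOB1 to 0.64 for ZFP36. Without the WT CD3+CD28+TSP1 library at 1 h the value of ZFP36 was 0.22, that of ZFP36L1 0.23 in place of 0.42 and that of TOB2 0.17 in place of 0.32. The interaction at 1 h called 0 members (0.00612% of all genes), with 1 member, BTG1, at an unadjusted p under 0.05 and 0 by DESeq2 and by limma. That unadjusted cut held 478 of 16327 genes.

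At 3 h, in comparisons added after the values were seen, both CD3+CD28 libraries were above the single TSP1 library for 7 members in WT (35.7% of all genes) and for 3 in CD47- cells (ZFP36, ZFP36L1 and TOB2, 29.5% of all genes). The single library has no spread of its own and is assumed to vary like the other groups. ZFP36L1 was 3.13-fold higher in WT (log2 1.65, SE 0.33, edgeR adjusted p = 0.051) and 1.94-fold higher in CD47- cells (log2 0.96, SE 0.33, adjusted p = 0.488), where it was at log2 0.54 without the library that stood apart (adjusted p = 0.997). BTG1 was the member called in WT (0.58, SE 0.11, adjusted p = 0.0322), where 0.453% of all genes were called. This call was lost without any of 7 libraries, without the low-count filter (adjusted p = 0.218) and in a fit of the WT libraries alone (adjusted p = 0.0574). The value of BTG1 in CD47- cells was -0.17 (SE 0.10, adjusted p = 0.503). DESeq2 and limma each called ZFP36L1 in WT (adjusted p = 0.000107 and 0.0496), and so did edgeR without the library that stood apart (adjusted p = 0.00869), without the filter (adjusted p = 0.00198) and with the WT libraries alone (adjusted p = 0.0435). In CD47- cells 0 members and 0.00% of genes were called at 3 h, and 0 members by DESeq2 and limma. An unadjusted p under 0.05 was found for 3 members and for 1561 of 16327 genes. Without the CD47- CD3+CD28 library at 3 h, the library that stood apart was the sole activated one. The log2 values were then 1.29 for ZFP36L1, 0.71 for RC3H1, 0.69 for ZFP36L2 and 0.495 for TOB2. The interaction at 3 h called 0 members (0.0367% of all genes), and 0 by DESeq2 and limma. BTG1 was the only member among the 1228 of 16327 genes at an unadjusted p under 0.05. Without that same CD47- CD3+CD28 library, ZFP36L2 was at 0.95 in place of 0.61.

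**Figure D4:**
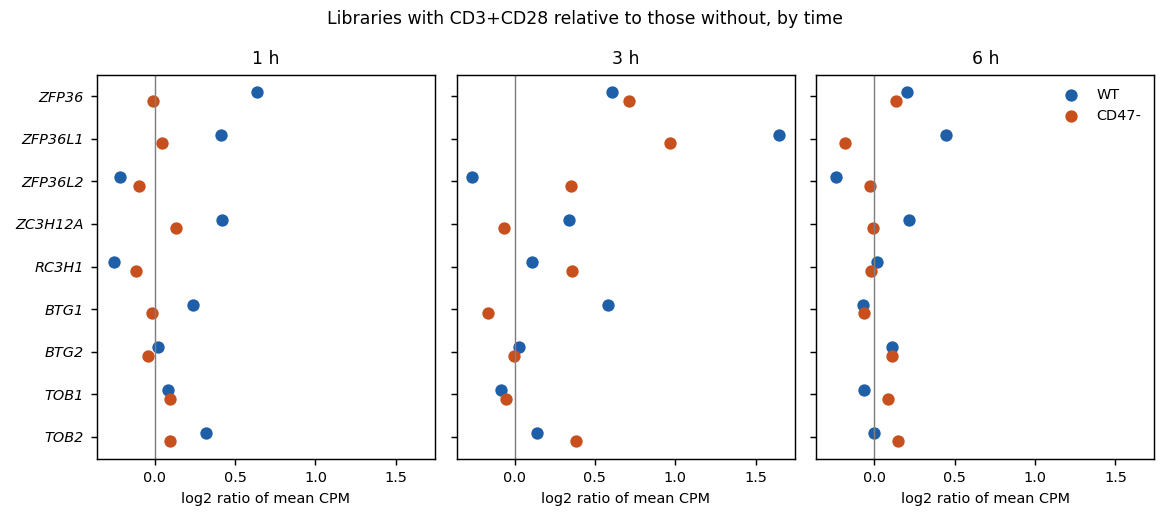
Log2 ratio of mean CPM in libraries with CD3+CD28 to mean CPM in libraries without it (x axis, 1 scale for all panels) at 1, 3 and 6 h for each gene, WT in blue and CD47- in orange, from 2 libraries with it and, at 1 h, 2 or, at 3 and 6 h, 1 without it. The widest point is ZFP36L1 in WT at 3 h, a ratio of 3.13.

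Across all times, CD3+CD28+TSP1 against TSP1 alone gave 0 called members in WT (0.116% of all genes) and 0 in CD47- cells (0.00%), with 5 and 1 members at an unadjusted p under 0.05 and 0 by DESeq2 and by limma in each. Of 16327 genes, 849 in WT and 2732 in CD47- cells were under that unadjusted cut. ZFP36L1 had the highest value in WT, 1.03 (SE 0.29, adjusted p = 0.447), and was called without the low-count filter (1.04, adjusted p = 0.0266). TSP1 added to CD3+CD28 left no called member in either line (0.00% of all genes in each by edgeR), with 0 members in WT and 1 in CD47- cells, ZFP36L2, at an unadjusted p under 0.05 and 0 by DESeq2 and limma. That unadjusted cut held 371 of 16327 genes in WT and 1834 in CD47- cells. The widest member changes with TSP1 were 0.21 for ZFP36L1 in WT (interval of 2 SE from -0.35 to 0.78) and 0.35 for ZFP36L2 in CD47- cells (0.08 to 0.63). Without the library that stood apart, ZFP36L2 was at 0.13 there and ZFP36L1 had the widest change, -0.27 (adjusted p = 0.999 for both). In WT, values under the alternatives and with a library left out ran from -0.02 to 0.68 for ZFP36L1. For ZFP36 they ran from -0.29 to 0.34.

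Of the 18 member isoforms tested, 1 was called between the lines, BTG2-201 (log2 -1.18, SE 0.21, edgeR adjusted p = 0.000242), against 18.2% of 55450 isoforms. It held 99.8% of BTG2 counts in WT and 99.6% in CD47- cells. BTG1 counts went mainly to BTG1-203, a transcript without a defined coding sequence, with 64.2% in WT and 66.6% in CD47- cells, and BTG1-201, the coding form, held 35.4% and 32.9%. RC3H1-201 held 62.4% and 59.1% of RC3H1 counts and RC3H1-203 30.8% and 33.3%. Shares of ZFP36-202 ran from 0 to 87.4% of ZFP36 counts between WT libraries, and this transcript differs from ZFP36-203 by 5 bases at the 3′ end, so their split is uncertain. The BTG1 locus (chromosome 12, 92140278 to 92145846, minus strand) overlaps LINC01619 on its own strand and BTG1-DT on the other, and the TOB1 locus (chromosome 17, 50862223 to 50867978, minus strand) overlaps TOB1-AS1 on the other. The ZFP36L1 locus overlaps an unnamed lncRNA on its own strand, that of ZFP36L2 one on the other strand, that of RC3H1 overlaps RC3H1-IT1 and RNA5SP68 and that of ZC3H12A MIR6732, so that some reads of these 6 genes may belong to their partners.

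Centred within each line over 20 libraries, the members fell into loose groups. BTG1 and TOB1 had a Pearson r of 0.95, BTG2 and TOB1 0.88, BTG1 and BTG2 0.83, ZFP36L1 and TOB2 0.82, and ZFP36L1 and ZFP36L2 -0.57. The points share lines, times and treatments, so these are descriptions. Of all genes tested, DNAJB1, a heat shock co-chaperone, was most like BTG1 (0.98), TRPC4AP most like BTG2 (0.98), ANXA11 most like TOB1 (0.98) and PYGM most like TOB2 (0.95). For the others these were HEXIM1 with ZFP36 (0.90), TRG-AS1 with ZFP36L1 (0.96), KLHDC10 with ZFP36L2 (0.92), RPL28 with ZC3H12A (0.95) and SMG1, a nonsense-mediated decay kinase, with RC3H1 (0.92). SPRY4, a feedback inhibitor of ERK signalling, was also among the 3 nearest to ZFP36L1 (0.93), and IER2, an immediate early gene, among those nearest to ZFP36 (0.88).

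Of 14 deadenylase genes, 4 were higher and 3 lower at 6 h than at 1 h in WT (median -0.13) and 0 higher and 9 lower in CD47- cells (median -0.27), against medians of 0.00 over all genes. By the interaction of line and time, the change was lower in CD47- cells for 4 of these 14 and higher for 0. Over all genes, that interaction was called lower for 10.1% and higher for 6.54%. At 6 h against 1 h, 25.9% of all genes tested were higher and 25.0% lower in WT, and 26.5% and 27.2% in CD47- cells. The counts of these lists from 1 to 6 h stand beside those shares. CNOT7 (0.57, adjusted p = 1.09e-05) and CNOT8 (0.36, adjusted p = 0.000863), the subunits that BTG and TOB proteins bind, rose in WT, and CNOT6L, another catalytic subunit, fell in WT (-0.77, adjusted p = 1.63e-05) and in CD47- cells (-0.81, adjusted p = 9.74e-06) by edgeR. Of 16 genes of decapping and 5′-to-3′ decay, 7 rose and 5 fell in WT and 5 rose and 5 fell in CD47- cells, among them the exonuclease XRN1 (-0.77 and -1.01, adjusted p = 6.19e-07 and 4.82e-08). Of 12 exosome genes 5 rose and 2 fell in each line, led by EXOSC5 (1.00 and 1.75, adjusted p = 4.26e-05 and 1.53e-07). BTG3, a further BTG gene, fell by 1.59 on the log2 scale in WT (adjusted p = 2.57e-07) and fell by 0.96 in CD47- cells (adjusted p = 2.27e-05), while 3 of the 6 paralogs listed did not pass the low-count filter. Between the lines, RC3H2, the paralog of RC3H1, was lower in CD47- cells (-0.63, adjusted p = 9.74e-09), as was PABPC1, the poly(A)-binding partner of TOB proteins (-0.50, adjusted p = 0.00032). Of the deadenylase genes 1 was higher there (CNOT11, 0.35) and 2 lower, and of the decapping genes 1 (DCP1A, 0.40) and 0. For the exosome these counts were 0 and 2, and for the 3 paralogs tested 0 and 2. Of 10 regulators and partners, PABPC1 included, 2 were higher (MAPK14, 0.26, and N4BP1, 0.23) and 1 lower. Of all genes 20.1% were higher and 21.0% lower.

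Regulators of the members, mRNAs reported as their targets, quiescence genes and immediate early genes were counted in the same way. Of 10 regulators and partners, 4 were higher and 4 lower at 6 h than at 1 h in WT and 3 higher and 4 lower in CD47- cells. YWHAB, a 14-3-3 protein, rose in WT (0.49, edgeR adjusted p = 1.96e-05) and CD47- cells (0.26, adjusted p = 0.00277), as did UPF1, a helicase of nonsense-mediated decay (0.59, adjusted p = 8.2e-05, and 0.65, adjusted p = 2.71e-05). MAPK14 rose in WT (0.29, edgeR adjusted p = 0.00176) and fell in CD47- cells (-0.34, adjusted p = 0.000489). MAPKAPK2, the kinase that inactivates ZFP36, fell from 1 to 6 h in WT (-0.74, edgeR adjusted p = 4.13e-07) and CD47- cells (-0.59, adjusted p = 3.29e-06), and so did MALT1, the protease that cleaves ZC3H12A and RC3H1 (-0.57, adjusted p = 2.57e-05, and -0.55, adjusted p = 2.88e-05). Of 21 reported decay targets 13 were tested, and 5 were higher and 0 lower in CD47- cells over all libraries (20.1% of all genes higher and 21.0% lower), including TNF (3.31, adjusted p = 8.57e-10), CXCL8 (3.61, adjusted p = 1.85e-08) and NFKBIZ (2.11, adjusted p = 3.18e-12). At single times 4 were higher and 2 lower at 1 h, 7 and 2 at 3 h, and 6 and 0 at 6 h. Of all genes, 48.6%, 46.5% and 47.0% were called at these times. From 1 to 6 h, 2 targets rose and 7 fell in WT (median -1.32) and 3 rose and 6 fell in CD47- cells (median -0.30). Of 16 quiescence genes 6 were higher and 3 lower in CD47- cells over all libraries, against the same shares of all genes, among them S1PR1 (1.57, adjusted p = 1.23e-12), TXNIP (1.99, adjusted p = 3.5e-12) and KLF4 (1.83, adjusted p = 9.48e-08) up and IL7R (-2.45, adjusted p = 1.55e-07) down. At single times 7 quiescence genes were higher and 4 lower at 1 h, 8 and 5 at 3 h, and 6 and 6 at 6 h. From 1 to 6 h, 5 of them rose and 7 fell in WT (median -0.07), and 2 rose and 9 fell in CD47- cells (median -0.30). Of 15 immediate early genes, all 15 fell from 1 to 6 h in WT (median -3.27) and 11 in CD47- cells (median -1.07), and 6 rose with CD3+CD28 at 1 h in WT (0.0735% of all genes rose and 0.0122% fell) and 0 in CD47- cells, led by FOS (1.51, adjusted p = 0.000415), DUSP2 (1.83, adjusted p = 0.000495) and CD69 (1.90, adjusted p = 0.00499). By the interaction, the change from 1 to 6 h was higher in CD47- cells for 11 of these 15 and lower for 0, against 6.54% and 10.1% of all genes, while the levels over all libraries were higher there for 1 and lower for 8. At single times the levels were higher there for 1 and lower for 9 at 1 h, 2 and 6 at 3 h, and 4 and 1 at 6 h. The shares of all genes called at these times are given above.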

How the data were processed

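RNA was sequenced from 20 libraries of WT and CD47- Jurkat T cells (TruSeq mRNA). Per the labels and the study's methods, the authors used Cutadapt 1.18 for trimming, STAR 2.4.2a for alignment to GRCh38 and RSEM 1.3.3 with GENCODE version 36 for quantification. Expected counts, not normalized, were deposited for 60719 genes and 232184 isoforms. Each table also has 2 columns of no sample, which were not used. The batch that the authors removed with ComBat and the strand setting of the counts are not given in the sources used here, so the former was not repeated and antisense reads could not be separated.

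Expected counts were rounded and fitted in edgeR 4.0.16 (R 4.3.3): filterByExpr by line (minimum count 10, total 15), TMM factors, quasi-likelihood tests with its current dispersion method and Benjamini-Hochberg adjustment over 16327 genes or 55450 isoforms, with a threshold of 0.05. The SE is the log2 fold change divided by the square root of F. The lines were compared without other terms over all libraries and with a term for each line and time at single times. Time and TSP1 contrasts used a model of line, treatment and time within line, and CD3+CD28 at 1 or 3 h a model of line, time and activation. Matched libraries of the lines deviated together (correlations of 0.115 to 0.452 in the 10 pairs, matched by the treatment and time in the labels), so blocked values are given where they change a call. The shared time of a pair enters these correlations, and within a time they were -0.257 to 0.084. Levels per kb used isoform counts and GENCODE version 44 lengths. Sequences are from GENCODE version 44 and RefSeq. The fits were tested on simulated data. Depth limits precision: 3 counts correspond to 0.0978 to 0.155 CPM.

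The members and lists were chosen with earlier results of these data known. Beside the members, the genes named are up to 3 risen and 3 fallen genes of a list with the smallest p, and up to 3 genes most like each member. Alternatives were DESeq2 1.42.0, limma 3.58.1 voom with quantile normalization, upper-quartile factors, the older quasi-likelihood method, no filter, at least 1 CPM in every library, a replicate block, a time term, activated or unactivated pairs, single lines, pooled TSP1 states and each library left out. The block at single times and for interactions, the CD3+CD28 comparisons at 3 h and the interaction of lines from 1 to 3 h were added after the values were seen. The values of 2 genes of the lists are not reported here.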

Additional observations from a re-analysis of the deposited data

Results flagged for a closer look

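Of 36 groups of 4 or 10 libraries examined for a library far from the rest, 4 had such a library. The rule flags about 1 in 20 groups by chance where values are independent and alike. The groups of 10 mix times and treatments and contain the groups of 4, so the 4 cannot be set against that rate. The untreated WT library was flagged for RC3H1 in both kinds of group. ZFP36 was at 19.2 CPM in the WT CD3+CD28+TSP1 library at 1 h, and the next of the 10 WT libraries was at 11.3 CPM. ZFP36L1 was at 32.0 CPM in the CD47- CD3+CD28+TSP1 library at 3 h, the one that stood apart, and the next was at 19.0 CPM. RC3H1 was at 96.2 CPM in the untreated WT library at 1 h, against a next value of 73.0 CPM among all 10 WT libraries and 72.5 CPM among the 4 at 1 h.

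The response from 1 to 6 h differed between the lines by the edgeR interaction test for 6 members, as CD47- minus WT on the log2 scale: ZFP36L1 by 1.34 (adjusted p = 0.0438), ZFP36L2 by -0.93 (adjusted p = 0.00539), ZC3H12A by 1.08 (adjusted p = 0.000975), BTG1 by 0.56 (adjusted p = 0.0168), BTG2 by -0.67 (adjusted p = 0.00508) and TOB2 by 0.92 (adjusted p = 0.000669). Of all genes, 16.7% were called in this test. The call of ZFP36L1 was lost with limma (adjusted p = 0.0778) and on leaving out any of 11 libraries, and that of BTG1 without 1 library. From 1 to 3 h the response differed by edgeR for TOB2, by 0.61 (adjusted p = 0.028), where 4.26% of all genes were called. That call was lost without any of 6 libraries and with the block on pairs (adjusted p = 0.0632).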

How the results depend on the processing

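These counts of members called moved by over 1.5 times, or to or from 0. Between the lines over all libraries the count was 1, and 2 with upper-quartile factors, 3 with the replicate block on matched pairs and 5 with a time term. CD3+CD28+TSP1 against TSP1 in WT had 1 (ZFP36L1) without the low-count filter in place of 0, CD3+CD28 at 3 h in WT had 2 by DESeq2 and 2 by limma in place of 1, and the isoforms had 2 by DESeq2 in place of 1. With the replicate block, added for single times and interactions after the values were seen, the interaction from 1 to 3 h had 0 in place of 1 (2.44% of all genes in place of 4.26%). A smaller move with this block was 7 in place of 5 between the lines at 6 h (44.4% of all genes in place of 47.0%). The block changed no other call at single times or for interactions. With each library left out in turn, the counts ran from 1 to 2 between the lines over all libraries (2 without the WT untreated 1 h, WT CD3+CD28+TSP1 1 h or CD47- CD3+CD28 3 h library), from 3 to 5 at 1 h (5 without the CD47- CD3+CD28+TSP1 3 h library), from 3 to 5 for 3 against 1 h in CD47- cells (5 without the CD47- CD3+CD28+TSP1 library of 1 h or of 3 h), from 0 to 2 for the interaction from 1 to 3 h (0 without any of 6 libraries), from 0 to 2 for CD3+CD28 at 3 h in WT (0 without any of 6, and 1 without WT CD3+CD28+TSP1 6 h, where ZFP36L1 took the place of BTG1), from 0 to 4 for it in CD47- cells and from 0 to 2 for its interaction (both highest without the CD47- CD3+CD28 3 h library), and from 1 to 3 for isoforms (3 without the WT CD3+CD28+TSP1 1 h library). Smaller moves under other settings were 6 in place of 5 between the lines at 6 h (DESeq2, 1 CPM in every library, upper-quartile factors), 3 in place of 2 at 3 h (limma), 4 in place of 3 for 3 against 1 h in CD47- cells (1 CPM in every library, upper-quartile factors), 3 in place of 4 for 6 against 1 h there (upper-quartile factors) and 5 in place of 6 for the interaction from 1 to 6 h (limma). With a library left out, the smaller ranges were 2 to 3 at 3 h and 5 to 7 at 6 h between the lines, 5 to 7 for 3 against 1 h in WT, 3 to 5 for 6 against 1 h in CD47- cells and 4 to 7 for the interaction from 1 to 6 h. For CD3+CD28 at 3 h in CD47- cells and its interaction, the highest counts rest on 1 activated library of that line. Shares of all genes are not given here for fits with a library left out. No direction of a called value reversed. Of the values of single members under other settings, 1308 kept their side of the threshold, 24 gained and 9 lost a call, and with a library left out 3477 kept it, 48 gained and 39 lost a call. RC3H1 at 6 h against 1 h in CD47- cells lost its call with limma, upper-quartile factors, pooled TSP1 states or the line alone, and without any of 9 libraries. ZFP36 and TOB2 at 3 h in WT lost theirs without the WT CD3+CD28+TSP1 library of 1 h (adjusted p = 0.106 and 0.081) or of 3 h (adjusted p = 0.105 and 0.0524), and TOB1 at 6 h between the lines without the filter (adjusted p = 0.0788) or without the CD47- TSP1 6 h library (adjusted p = 0.0556). The cause of these changes was not tested. Each condition had 1 library, which limits all comparisons of treatments.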
